A study of Mus musculus with 30 samples.

Results

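The 9 genes described here, Cdkn1a, Mdm2, Bax, Ccng1, Phlda3, Bbc3, Gadd45a, Trp53inp1 and Sesn2, are established transcriptional targets of p53. They were listed by name, with earlier results of these data known. All 9 were present in both count tables and all 9 passed the filter on low counts, among 16375 of 53278 genes tested in the subventricular zone (SVZ) and 15419 of 50508 genes tested in the striatum. p53 is stabilised when DNA is broken or its copying is blocked. It then raises genes that stop the cell cycle, genes that kill the cell through the mitochondria and genes that switch p53 itself off again. In the adult SVZ, the niche that makes olfactory bulb interneurons throughout life, the dividing cells are the transit-amplifying progenitors and the neuroblasts, whereas nearly all neurons of the neighbouring striatum are post-mitotic.

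The mice were adult C57Bl/6 animals of both sexes, and the sex of each mouse was not given. NestinTK+ mice carried a viral thymidine kinase (TK) driven by the enhancer in the second intron of Nestin, which is active in neural precursors, and NestinTK- mice were their littermates without the transgene. Ganciclovir (GCV), a nucleoside analogue that TK phosphorylates and that then blocks DNA copying in dividing cells, or phosphate-buffered saline (PBS) was given for 4 weeks by a pump under the skin. Each tissue was dissected from the same 15 mice, giving 1 library per mouse. Of the NestinTK+ mice 5 had GCV and 4 had PBS, and of the NestinTK- mice 3 had each. NestinTK- mice separate the drug alone (GCV minus PBS) from the drug with the transgene, and the genotype by GCV interaction tests whether the effect of GCV differed between the genotypes. The labels name the SVZ samples as neural precursor cells, but they were pieces of tissue, so a lower level can mean fewer cells of a type or less RNA per cell, which cannot be told apart.

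SVZ libraries held 8360810 to 21056005 counts and striatal libraries 2626962 to 4693441 counts. Levels are given as CPM, the share of a library's counts scaled to a common total, after TMM scaling, which compares libraries for the same gene and is not corrected for gene length. As a check of the labels, the summed level of 16 genes of dividing cells in the SVZ was 15.2 to 58.7 CPM in NestinTK+ GCV mice and 77.2 to 211 CPM in the other 10 mice, with no overlap. The summed level of 10 neuroblast genes was 161 to 275 CPM against 223 to 660 CPM. Reads of the choroid plexus gene Ttr took over 1% of counts in 3 SVZ libraries, all from PBS mice. Within the SVZ, NestinTK+ GCV libraries were shallower (8360810 to 9595103 against 8947137 to 21056005 counts) and held more mitochondrial counts (13.1 to 17% against 6.69 to 15.2%). All libraries from GCV mice carried the numbers 1 to 10 and all from PBS mice higher numbers, so the drug cannot be told apart from the numbering of the libraries. The mouse numbers form 2 series: all NestinTK- PBS mice, 1 of 3 NestinTK- GCV mice, 1 of 4 NestinTK+ PBS mice and 0 of 5 NestinTK+ GCV mice belonged to the lower one.

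The genes lie on 7 chromosomes of GRCm38 (mm10), and all are protein coding in the GENCODE annotation. Cdkn1a spans chr17:29090976-29100727 on the plus strand, Mdm2 chr10:117688875-117710758 (minus), Bax chr7:45461697-45466898 (minus) and Ccng1 chr11:40748552-40755311 (minus). Phlda3 spans chr1:135766119-135769136 (plus), Bbc3 chr7:16308393-16318205 (plus) and Gadd45a chr6:67035096-67037457 (minus). Trp53inp1 spans chr4:11156431-11174379 (plus) and Sesn2 chr4:132492032-132510501 (minus). Exons of Gadd45a overlap the antisense gene E230016M11Rik, which held at most 45 counts in any SVZ library and 8 in any striatal library, and whether the counting used strand is not stated, so reads of the pair cannot be told apart. Bax shares exons with the read-through gene Gm45808, which held 0 counts in every library, and exons of Cdkn1a overlap a further antisense gene, AC167363.2, that is not listed in either table.

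p53 binds a response element made of a pair of 10-base units. RefSeq promoter windows (GRCm38.p6) of 250 bases before to 50 bases after the start site were found for 8 of the 9 genes, the exception being Trp53inp1. With at most 1 mismatch in 20 positions and a spacer of at most 1 base, the element was found in a window of Cdkn1a, Bax and Ccng1. It was found in 0.177% of all 32851 windows. Some genes have more than 1 window, so counts of genes and shares of windows are not the same measure. The element reads the same on both strands. The 3 sites are shown, on the strand of the gene, because they are the closest matches to the p53 element in the windows of the 8 genes, and the capitals mark the pair of 10-base units:
Cdkn1a, chr17:29090908-29090967, plus strand: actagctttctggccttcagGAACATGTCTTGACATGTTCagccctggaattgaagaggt
Bax, chr7:45467070-45467130, minus strand: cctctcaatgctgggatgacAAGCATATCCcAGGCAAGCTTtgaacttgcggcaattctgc
Ccng1, chr11:40755442-40755501, minus strand: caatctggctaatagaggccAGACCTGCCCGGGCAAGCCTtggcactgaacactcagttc
The element begins 51 bases before the upstream start site in Cdkn1a, 212 bases before the start site in Bax and 195 bases before it in Ccng1. The window of a further Cdkn1a start site, chr17:29093519-29093818, held no such element (5 mismatches at best) and no exact unit. A single exact unit was present in a window of 5 genes, those 3 with Mdm2 and Gadd45a, and in 8.36% of all windows. These are matches of letters only, and no binding was measured.

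In the SVZ no member was higher in NestinTK+ GCV mice by any test, although this is the tissue in which GCV meets TK in dividing cells. In each comparison that set NestinTK+ GCV mice against another group, 8 of the 9 genes had lower fitted levels, Sesn2 being the exception, and none passed a threshold. Across all 6 comparisons in the SVZ, 0 of 9 members were called by edgeR at the thresholds of the study (unadjusted p of at most 0.01 and at least 2-fold), 0 had an adjusted p below 0.05 and 0 had an unadjusted p below 0.05. DESeq2 and limma-voom also called 0 of 9 in each of the 6, and the only unadjusted p below 0.05 with either tool was 1 member with limma-voom, for the transgene under GCV.

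Cdkn1a encodes p21, the inhibitor of cyclin-dependent kinases through which p53 stops the cell cycle. Its SVZ levels in the 5 NestinTK+ GCV mice were 18.7, 5.44, 0.613, 29 and 19.3 CPM. NestinTK- GCV mice had 11.4, 26.8 and 18.7 CPM, NestinTK+ PBS mice 22.8, 19.2, 25.3 and 31.4 CPM, and NestinTK- PBS mice 31.3, 22.5 and 21.9 CPM. Mice 2 and 3 of the NestinTK+ GCV group lay below all other libraries, and the remaining 3 lay within the range of the controls. The group mean was 14.6 ± 11.5 CPM (SD, n = 5) against 23.1 ± 6.02 CPM (SD, n = 10) in the other 3 groups together. GCV in transgenic mice gave a log2 fold change of -0.75 (SE 0.66, 95% interval -2.15 to 0.64; edgeR, adjusted p = 0.93), and GCV alone gave -0.41 (SE 0.81, interval -2.11 to 1.29; adjusted p = 0.98).

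Gadd45a, a growth arrest gene of the damage response, was the member with the most libraries at 0. NestinTK+ GCV mice had 9.12, 0, 1.84, 2.35 and 0 CPM, where a count of 0 allows up to 0.419 CPM in mouse 2 and 0.372 CPM in mouse 5 (3 counts, counting error only). The 3 NestinTK- GCV mice had 8.04, 11 and 5.91 CPM. NestinTK+ PBS mice had 2.05, 2.83, 0.519 and 9.16 CPM, and NestinTK- PBS mice 9.71, 3.71 and 0.331 CPM. Every group but NestinTK- GCV spanned nearly the whole range of the gene. The transgene under GCV gave the lowest fitted value of any member in the SVZ, a log2 fold change of -1.64 (SE 1.47, 95% interval -4.73 to 1.45; edgeR, adjusted p = 0.88), which runs from a large fall to a rise of over 2-fold.

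Ccng1, encoding cyclin G1, which acts on Mdm2 through a phosphatase, ranged from 10.5 to 45.9 CPM in NestinTK+ GCV mice and from 8.26 to 62.9 CPM in the other 10. Its log2 fold change was -0.63 (SE 0.50) for GCV in transgenic mice, 0.25 (SE 0.62) for GCV alone and -0.65 (SE 0.54) for the transgene under GCV. The value for GCV alone did not keep its sign. It was -0.21 without mouse 3 and 1.02 without mouse 2 of the NestinTK- PBS group, and -0.50 with the series of mouse numbers as a covariate. Without the 3 libraries with Ttr over 1% it was 2.30. That fit leaves NestinTK- PBS 1 library, mouse 3, which had the lowest Ccng1 level in the SVZ, at 8.26 CPM.

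The feedback arm of the pathway was led by Mdm2, the ubiquitin ligase that marks p53 for degradation. NestinTK+ GCV mice had 22.1, 17.4, 30.9, 33.1 and 22.9 CPM of Mdm2 in the SVZ. The level was 29.3, 42.5 and 23.1 CPM in NestinTK- GCV mice, 53.5, 44.3, 31.7 and 25.9 CPM in NestinTK+ PBS mice, and 35.9, 58.8 and 29.9 CPM in NestinTK- PBS mice. The groups overlapped, but 3 of the 5 NestinTK+ GCV libraries lay below all 10 others. Against the 3 pooled control groups the log2 fold change was -0.57 (SE 0.28, 95% interval -1.15 to 0.02; edgeR, unadjusted p = 0.058, adjusted p = 0.53), the smallest unadjusted p of any member in this tissue. Phlda3, which keeps the kinase Akt from the membrane, had 13.1, 10.6, 7.97, 11.5 and 0.496 CPM in NestinTK+ GCV mice and 5.54 to 33.2 CPM in the other 10, and its fitted change against them was -0.65 (SE 0.64).

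No difference between groups was detected for the genes of the death arm either. Bax, whose protein opens the outer mitochondrial membrane, was the member with the least spread: 32.6, 33.2, 19.6, 26.6 and 30.9 CPM in NestinTK+ GCV mice, against 37.8, 22.6 and 40 CPM in NestinTK- GCV, 29.3, 41.4, 43.6 and 49.2 CPM in NestinTK+ PBS and 30.6, 32.9 and 50.8 CPM in NestinTK- PBS mice. The 95% interval for GCV in transgenic mice, a log2 fold change of -1.18 to 0.14 around -0.52, does not hold a 2-fold rise. Bbc3, encoding the Bcl2 antagonist Puma, was at 0.641 to 4.17 CPM in NestinTK+ GCV mice and at 0 to 6.28 CPM in the others, with 0 counts in mouse 2 of the NestinTK+ PBS group, which allows up to 0.223 CPM. Its intervals spanned at least 4-fold in both directions for GCV in either genotype. Trp53inp1, a stress protein that promotes p53 activity and cell death, was at 0.991 to 17.9 CPM in NestinTK+ GCV mice and at 3.97 to 52.6 CPM in the others, the highest value being mouse 1 of the NestinTK- GCV group.

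Sesn2, a sestrin that restrains mTORC1 and is also raised by Atf4, was the member whose fitted level was higher with GCV and the transgene. NestinTK+ GCV mice had 20.6, 26.1, 6.62, 1.07 and 0.744 CPM. The other groups had 0.359, 5.07 and 7.88 CPM (NestinTK- GCV), 5.09, 9.97, 5.25 and 8.11 CPM (NestinTK+ PBS) and 0.306, 11.1 and 3.19 CPM (NestinTK- PBS). Mice 1 and 2 of the NestinTK+ GCV group lay above all other libraries, and mice 4 and 5 lay below 8 of the 10 controls. The log2 fold change against the pooled controls was 0.97 (SE 0.84, 95% interval -0.78 to 2.72; edgeR, adjusted p = 0.78).

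**Figure D1:**
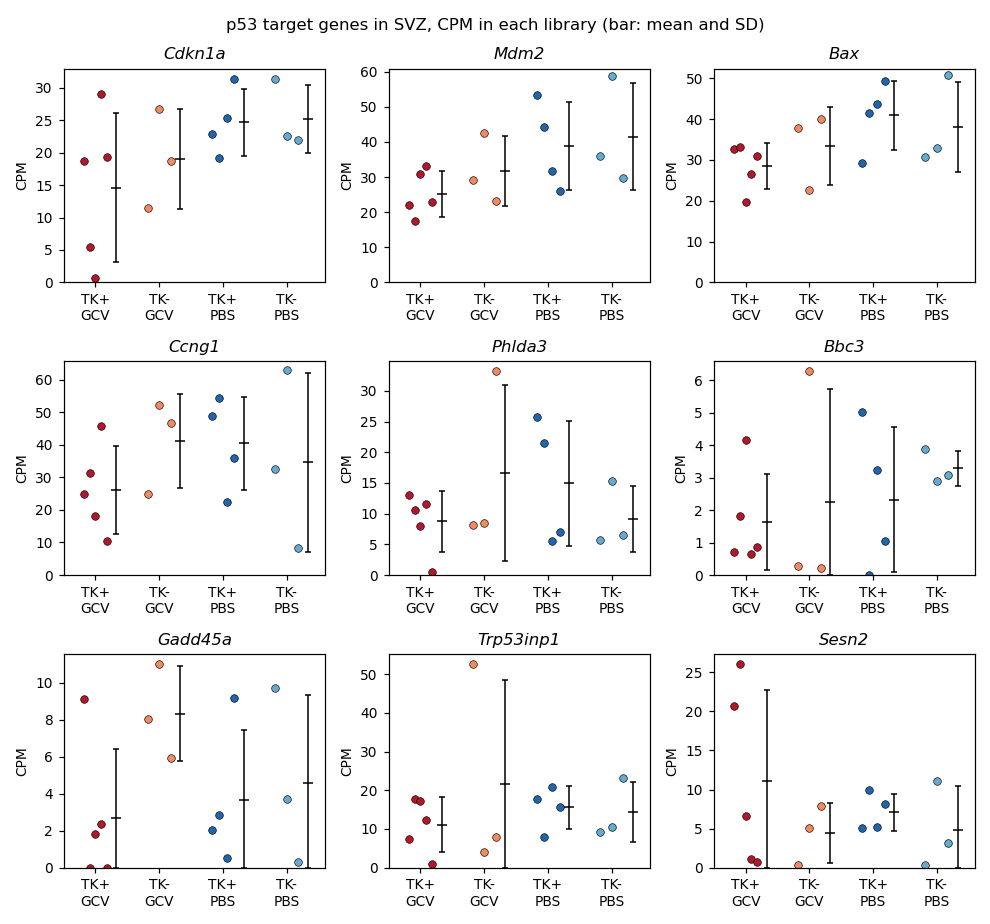
TMM-scaled CPM of each of the 9 genes (vertical axes, linear from 0) in every SVZ library, by group (TK+ and TK- are NestinTK+ and NestinTK-); points are libraries, and the bar beside them is the mean with the SD, drawn no lower than 0. The groups overlap for every gene, and single libraries such as Trp53inp1 at 52.6 CPM set the spread.

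Taken comparison by comparison, the fitted level of 5 of 9 members in the SVZ was lower with GCV alone (median log2 fold change -0.14, range -0.54 to 0.86), with 0 called. Of all genes tested, 1.06% were called there, 0% had an adjusted p below 0.05 and 7.65% had an unadjusted p below 0.05. GCV in transgenic mice gave 8 of 9 lower, with a median of -0.52 and a range of -0.77 to 0.63, where 49.8% of all genes were lower and the median gene was at 0.00. In that comparison 1.19% of genes were called, 0% passed the adjusted threshold and 7.13% had an unadjusted p below 0.05. The transgene under GCV also gave 8 of 9 lower (median -0.46), where 47.7% of all genes were lower. Its shares of all genes were 0.94% called, 0% by adjusted p and 7.45% by unadjusted p.

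The transgene alone gave 4 of 9 members lower (median 0.10), with 0.195% of all genes called, 0% by adjusted p and 2.69% by unadjusted p. For the interaction 7 of 9 were lower (median -0.34), with 0.837% of genes called, 0% by adjusted p and 5.09% by unadjusted p. The lowest unadjusted p of a member for the interaction was 0.21 (edgeR, Phlda3, adjusted p = 0.97), so no difference in the effect of GCV between the genotypes was detected for any member. These values moved with the libraries used: without the 3 with Ttr over 1%, which leaves NestinTK- PBS 1 library that is assumed to vary like the rest, the interaction was -2.82 for Ccng1 (edgeR, unadjusted p = 0.015, adjusted p = 0.64) and -5.23 for Gadd45a (unadjusted p = 0.18, adjusted p = 0.78). NestinTK+ GCV mice against the 3 pooled groups, the comparison the study made, gave 8 of 9 lower (median -0.61) where 51.9% of all genes were lower. Over all genes 1.59% were called, 0.00611% passed the adjusted threshold, which is 1 gene, and 9.81% had an unadjusted p below 0.05. These comparisons share libraries (the 5 NestinTK+ GCV mice stand in 4 of the 6), and the 9 genes of a library share its scaling, so the repeated count of 8 is not a repeated observation.

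The count of 8 was 7 or 8 in all 22, 22 and 21 alternatives of the 3 comparisons, and without the 3 libraries with Ttr over 1% it was 7 for GCV in transgenic mice and 8 in the other 2. All 16 dividing-cell genes were lower in those 3 comparisons, with median log2 fold changes of -2.37, -2.53 and -2.14, as were 9 of 10 neuroblast genes. Markers of other cells also moved with some of these comparisons. For GCV in transgenic mice and against the pooled controls, 6 of 6 ependymal genes were lower (medians -1.43 and -1.07), as were 6 of 6 choroid plexus genes (-6.08 and -6.03), each of the latter at an unadjusted p below 0.05, whereas for the transgene under GCV 3 of 6 and 2 of 6 were. All 8 oligodendrocyte genes were lower in each of the 3 comparisons (medians -0.17, -0.34 and, for the transgene under GCV, -0.70). GCV alone also gave 6 of 6 ependymal genes lower (median -1.64) and 6 of 6 choroid plexus genes lower (-6.62). Each of the latter had an unadjusted p below 0.05 (edgeR). In that comparison 9 of 16 dividing-cell genes (median -0.06), 7 of 10 neuroblast genes (-0.28) and 0 of 8 oligodendrocyte genes (0.64) were lower. The part of these marker levels, of the lower depth and of the higher mitochondrial share in the members' lower levels was not tested.

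What the SVZ libraries can show is limited by their spread. The coefficient of variation within a group had a median of 52.9% over the 36 combinations of gene and group, with a range of 16.3 to 154%, and standard errors of the log2 fold changes ran from 0.25 to 2.22. A 2-fold rise lay outside the 95% interval for 5 of 9 members under GCV in transgenic mice (Cdkn1a, Mdm2, Bax, Ccng1 and Phlda3) and for 6 of 9 against the pooled controls, Trp53inp1 being the sixth. For Bbc3, Gadd45a, Trp53inp1 and Sesn2 the intervals under GCV in transgenic mice held 2-fold changes in both directions, so a change of that size was not detectable with these libraries.

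The wider p53 pathway in the SVZ was read from lists that hold none of the 9. Of 25 tested among 28 other p53 targets, 0 were called in any of the 6 comparisons. For GCV in transgenic mice 3 of them were lower and 1 higher at an unadjusted p below 0.05 (edgeR), and the list median was -0.17. Under GCV alone 5 were lower and 0 higher, with a median of -0.28. Of all genes, 4.4% were lower and 2.73% higher at that p for GCV in transgenic mice. For GCV alone these shares were 4.72% and 2.93%. Of 19 DNA damage signalling genes tested and 10 genes of the Atf4 stress pathway, 0 were called in any comparison. Trp53, which encodes p53 itself, had a log2 fold change of -0.48 (SE 0.66) for GCV in transgenic mice and of -0.03 (SE 0.80) for GCV alone.

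Called genes in these lists were 4 in the SVZ, and all of the calls were lower. Calls over all genes were mostly lower too. They were 130 lower and 44 higher for GCV alone, 158 and 37 for GCV in transgenic mice, and 199 and 61 against the pooled controls. The shares of all genes called were 1.06%, 1.19% and 1.59%. Bad, a pro-death Bcl2 relative, and Cflar, which encodes an inhibitor of caspase-8, were called for GCV alone. Bad had 32.6, 34.8 and 24.4 CPM in NestinTK- GCV mice against 115, 89.5 and 49.6 CPM in NestinTK- PBS mice (log2 fold change -1.47, SE 0.47; edgeR, adjusted p = 0.65). Cflar had 3.16, 3.75 and 4.63 CPM against 33.2, 28.5 and 15 CPM (-2.73, SE 0.89; edgeR, adjusted p = 0.65). Both pairs of groups did not overlap, and the 2 highest PBS values of each gene came from the libraries with Ttr over 1%. Without the libraries with Ttr over 1% the log2 fold changes were -0.72 for Bad and -1.98 for Cflar. That fit leaves NestinTK- PBS 1 library, so whether the calls would hold cannot be judged from it.

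Bok, a Bcl2 relative that can form pores, was called for GCV in transgenic mice (log2 fold change -2.37, SE 0.79; edgeR, adjusted p = 0.62). NestinTK+ PBS mice had 15, 17.8, 23.7 and 136 CPM of it, and without the last library the value was -1.01 and the call was lost. Trp73, encoding the p53 relative p73, was called for GCV in transgenic mice and against the pooled controls. GCV alone gave a log2 fold change of -6.27 (SE 2.19, edgeR, unadjusted p = 0.0103, adjusted p = 0.65), just short of a call. The transgene under GCV gave -0.14 (SE 1.66). The interaction was 0.85 (SE 2.47), so the effects of GCV in the genotypes were not shown to differ. Trp73 had 0, 1, 0, 4 and 0 counts in NestinTK+ GCV mice and 1, 0 and 4 counts in NestinTK- GCV mice. It had 171, 94, 28 and 0 counts in NestinTK+ PBS mice and 191, 285 and 34 counts in NestinTK- PBS mice. Its adjusted p was 0.62 and 0.38 in the comparisons with a call (edgeR). The 3 highest libraries were those with Ttr over 1%. Its log2 fold change was -5.42 in both. Without those 3 libraries it was -4.51 (unadjusted p = 0.036) and -3.86 (unadjusted p = 0.054), still lower but no longer called (edgeR, adjusted p of 1 and 0.82).

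In the striatum the same 9 genes were measured with less spread. The coefficient of variation within a group had a median of 30.4% (range 1.9 to 79.5%), and standard errors ran from 0.11 to 0.86. Of the members, 0 of 9 were called and 0 of 9 passed the adjusted threshold in any of the 6 comparisons with edgeR, DESeq2 or limma-voom. With edgeR the unadjusted p was below 0.05 for Bax and Bbc3 under GCV alone, for Bax in the interaction, and for Phlda3 under GCV in transgenic mice and against the pooled controls.

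GCV alone, in mice without the kinase, was the comparison with the most members below an unadjusted p of 0.05. Bax was at 5.71, 9.76 and 8.74 CPM in NestinTK- GCV mice against 4.77, 5.02 and 3.15 CPM in NestinTK- PBS mice, from 21, 39 and 37 counts against 20, 23 and 13. The GCV libraries lay above the PBS libraries without overlap (log2 fold change 0.90, SE 0.42, 95% interval 0.03 to 1.77; edgeR, unadjusted p = 0.043, adjusted p = 0.29). With the series of mouse numbers as a covariate it was 0.83 with an unadjusted p of 0.13 (edgeR, adjusted p = 0.53). In the transgenic mice Bax was at 2.47, 8.34, 4.81, 5.39 and 6.65 CPM with GCV and at 6.3, 8.86, 8.05 and 3.74 CPM with PBS, which overlap, and the fitted change was -0.28 (SE 0.35). The difference between the 2 effects of GCV was -1.18 (SE 0.55, interval -2.31 to -0.04; edgeR, unadjusted p = 0.043, adjusted p = 0.31).

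Bbc3 under GCV alone was at 10.1, 29.8 and 25.3 CPM with GCV against 8.58, 15.3 and 11.6 CPM with PBS. Mouse 1 of the NestinTK- GCV group lay within the PBS range and the other 2 lay above it. The log2 fold change was 0.88 (SE 0.33, 95% interval 0.19 to 1.56; edgeR, unadjusted p = 0.015, adjusted p = 0.18). In transgenic mice the levels were 26.8, 16.3, 19.2, 20.1 and 28.6 CPM with GCV and 23.4, 16.6, 18.3 and 11.7 CPM with PBS, a fitted change of 0.34 (SE 0.27). The difference between the genotypes was -0.53 (SE 0.43; adjusted p = 0.61), so the effects were not shown to differ. Without mouse 1 of the NestinTK- GCV group or without mouse 2 of the NestinTK- PBS group Bbc3 was called, at a log2 fold change of 1.21 (edgeR, adjusted p = 0.060) and 1.11 (adjusted p = 0.097). With the series of mouse numbers as a covariate the value was 0.43 and the unadjusted p 0.30 (edgeR, adjusted p = 0.70).

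Cdkn1a had the opposite sign in the same mice. It was at 11.4, 13.5 and 15.6 CPM in NestinTK- GCV mice and at 17.6, 21.2 and 16.7 CPM in NestinTK- PBS mice, again without overlap, with a log2 fold change of -0.45 (SE 0.27; edgeR, unadjusted p = 0.11, adjusted p = 0.43). NestinTK+ GCV mice had 16.2, 21, 8.88, 22.1 and 15.3 CPM and NestinTK+ PBS mice 17.1, 16.6, 17.2 and 16.6 CPM, so the 4 PBS libraries lay inside the spread of the 5 GCV libraries. Of all genes tested, 9.77% did not overlap and were higher with GCV alone, as Bax was, and 10.2% did not overlap and were lower, as Cdkn1a was, so 1 of 9 in each direction is near the background. Gadd45a had 2, 10 and 4 counts in NestinTK- GCV mice against 18, 10 and 14 counts in NestinTK- PBS mice, a log2 fold change of -1.27 (SE 0.66; edgeR, unadjusted p = 0.065, adjusted p = 0.35).

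Over the 9 members GCV alone gave 6 lower and 3 higher (median log2 fold change -0.21, range -1.27 to 0.90). The 2 members with an unadjusted p below 0.05 stood against 16.1% of all genes tested, and the shares of genes called and past the adjusted threshold were 2.46% and 2.06%. Fitted levels of Cdkn1a, Gadd45a, Mdm2, Phlda3, Trp53inp1 and Sesn2 were lower, and those of Bax, Bbc3 and Ccng1 higher. Of the death arm, Bax and Bbc3 were thus higher and Trp53inp1 lower. Levels of cell type markers moved with the NestinTK- GCV group: 6 ependymal genes summed to 12.8 to 18.8 CPM there and to 25.9 to 60.9 CPM in the other 12 striatal libraries, and 8 microglial genes to 603 to 705 CPM against 462 to 611 CPM. Oligodendrocyte genes were at 2304 to 3054 CPM against 3238 to 4795 CPM in NestinTK- PBS mice, with 8 of 8 lower (median -0.41), 5 at an unadjusted p below 0.05 and 2 at an adjusted p below 0.05 (edgeR). Their part in the members' levels was not tested.

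Phlda3 carried the lowest unadjusted p of any member in either tissue for GCV in the transgenic mice. NestinTK+ GCV mice had 20.8, 15.2, 20, 15.3 and 21.6 CPM and NestinTK+ PBS mice 31.8, 31, 15.4 and 44.8 CPM. Mouse 3 of the PBS group lay within the GCV range and the other 3 lay above it. The log2 fold change was -0.72 (SE 0.24, 95% interval -1.23 to -0.22; edgeR, unadjusted p = 0.0069, adjusted p = 0.26), a fitted level lower by 1.65-fold that did not reach the 2-fold of a call. Without mouse 3 of the PBS group it was -0.97 with an adjusted p of 0.046, and with the series of mouse numbers as a covariate -0.86 with an adjusted p of 0.081 (edgeR). Without mouse 4 of the PBS group, which had the highest level, it was -0.48 with an unadjusted p of 0.058 (edgeR, adjusted p = 0.69). That library stood apart in its markers too: 8 medium spiny neuron genes summed to 3647 CPM against 7178 to 9527 CPM in the other 14 striatal libraries, 6 choroid plexus genes to 1427 CPM against at most 51.2 CPM, and 8 oligodendrocyte genes to 5932 CPM, the highest of all. Oligodendrocyte genes moved with this comparison as a whole, at 2103 to 2771 CPM in NestinTK+ GCV mice and 2797 to 5932 CPM in NestinTK+ PBS mice, with 8 of 8 lower (median log2 fold change -0.69), all 8 at an unadjusted p below 0.05 and 1 at an adjusted p below 0.05 (edgeR). Their part in the level of Phlda3 was not tested. NestinTK- mice had 17.7, 15.5 and 28.6 CPM with GCV and 31, 24.6 and 30.5 CPM with PBS, a fitted change of -0.47 (SE 0.29; adjusted p = 0.45), and the difference between the genotypes was -0.25 (SE 0.38; adjusted p = 0.82). With the series of mouse numbers as a covariate GCV alone gave -1.01, which was called (edgeR, adjusted p = 0.16). The values with the drug alone and with drug and transgene thus had the same sign and were not shown to differ. Against the pooled controls the log2 fold change was -0.54 (SE 0.22; edgeR, unadjusted p = 0.023, adjusted p = 0.38).

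Mdm2 had the highest counts of the 9 in this tissue and the narrowest intervals. It was at 107, 100, 101, 78.3 and 111 CPM in NestinTK+ GCV mice, at 96, 103 and 102 CPM in NestinTK- GCV mice, at 96.8, 88.6, 87.7 and 106 CPM in NestinTK+ PBS mice and at 101, 120 and 112 CPM in NestinTK- PBS mice. The 95% interval of its log2 fold change was -0.19 to 0.33 for GCV in transgenic mice, -0.46 to 0.17 for GCV alone and -0.25 to 0.20 against the pooled controls. A 2-fold change of this p53 feedback gene in either direction lay far outside all 3 intervals. Ccng1 (6.2 to 19.8 CPM), Trp53inp1 (3.25 to 10.7 CPM) and Sesn2 (1.11 to 10 CPM) overlapped between the groups in every comparison, and Sesn2 rested on 3 to 46 counts per library.

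**Figure D2:**
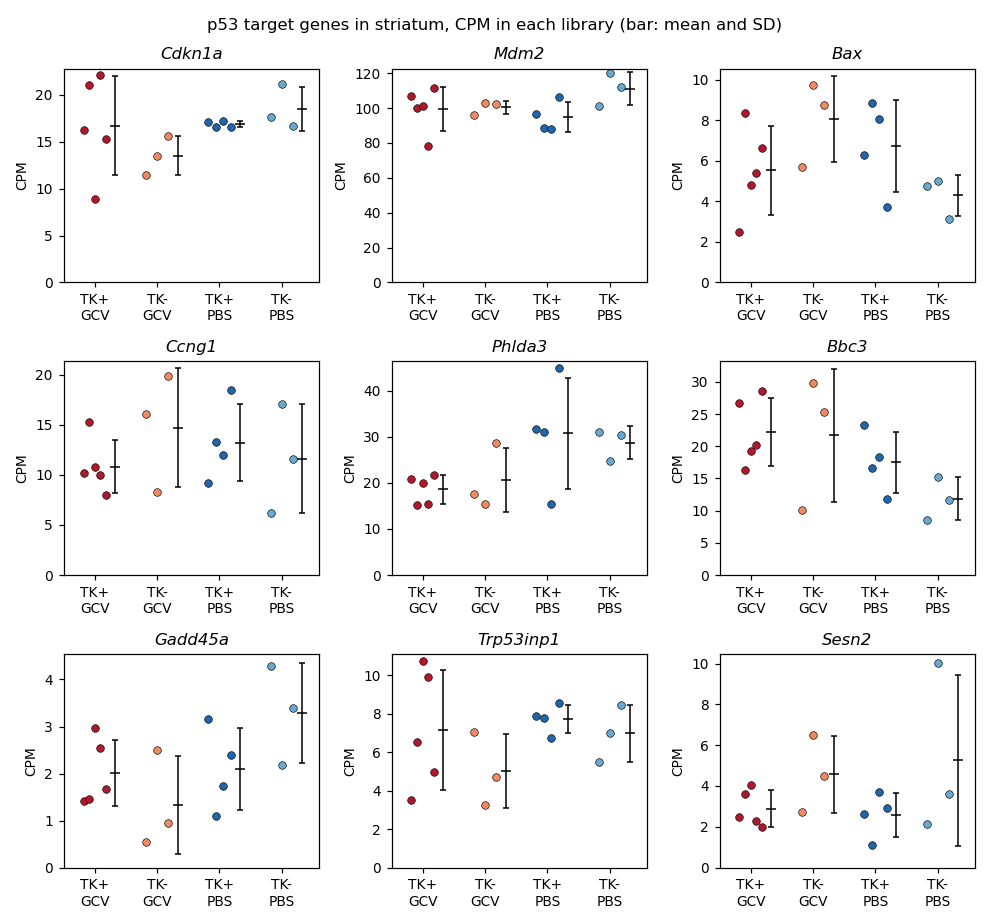
TMM-scaled CPM of each of the 9 genes (vertical axes, linear from 0) in every striatal library, by group; points are libraries, and the bar beside them is the mean with the SD, drawn no lower than 0. Bax at 5.71 to 9.76 CPM in NestinTK- GCV mice sits above the NestinTK- PBS mice, Cdkn1a at 11.4 to 15.6 CPM sits below them, and Mdm2 is nearly level.

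In the striatum GCV in transgenic mice gave 6 of 9 members lower (median -0.08, range -0.72 to 0.34). The 1 member with an unadjusted p below 0.05 stood against 10.1% of all genes, with 1.35% called and 0.149% past the adjusted threshold. The transgene under GCV gave 5 of 9 lower (median -0.01), 0 members below an unadjusted 0.05 against 17.7% of all genes, 2.1% called and 3.13% past the adjusted threshold. The transgene alone gave 4 of 9 lower (median 0.10) and 0 members against 6.41% of genes, with 0.83% called and 0% by adjusted p. In the interaction 4 of 9 were lower (median 0.22) and 1 member stood against 15.1% of genes, with 3.28% called and 0.817% by adjusted p. Against the pooled controls 6 of 9 were lower (median -0.15) and 1 member stood against 10.5% of genes, with 0.694% called and 0.182% by adjusted p. The 95% interval lay wholly within 2-fold in both directions for 5 of 9 members under GCV in transgenic mice and for 6 of 9 against the pooled controls.

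**Figure D3:**
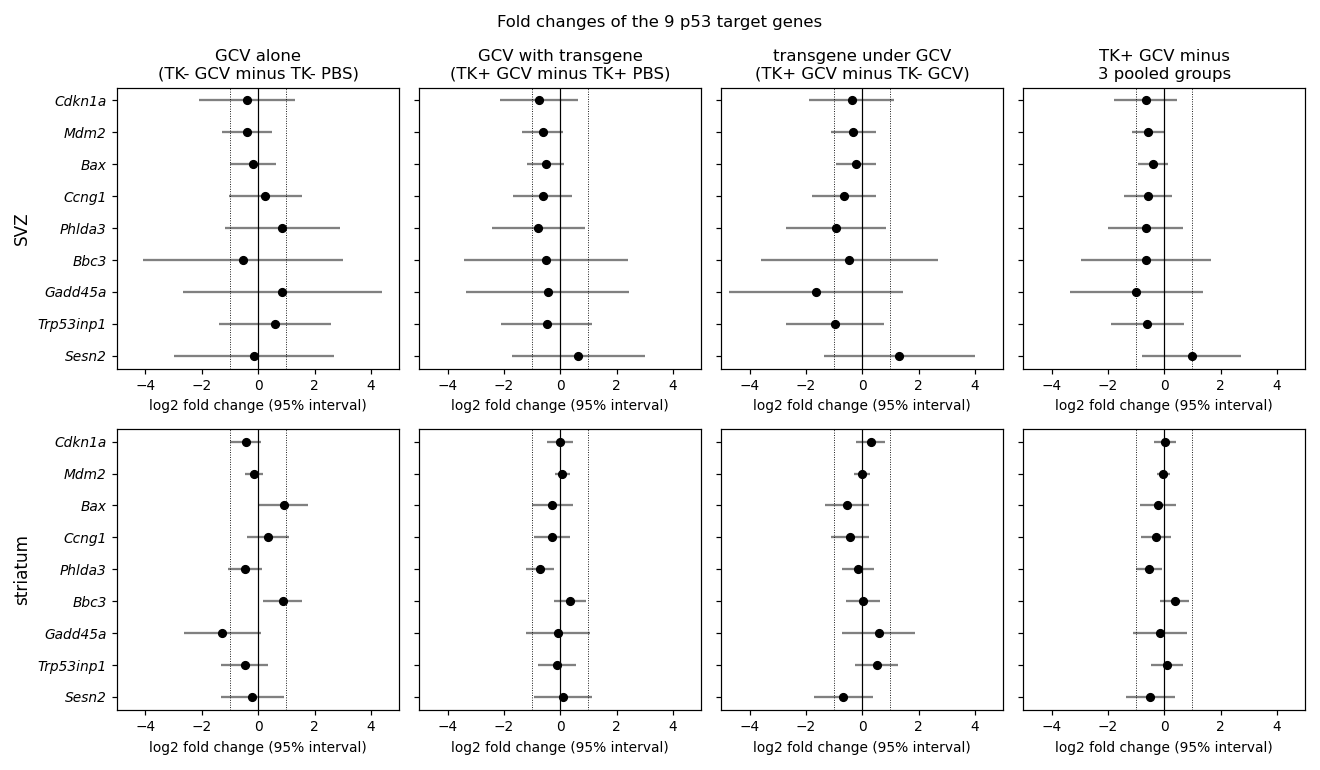
log2 fold change (points) with its 95% interval (lines) of each gene in 4 comparisons, SVZ above and striatum below; the solid line marks no change and the dotted lines 2-fold. In the SVZ 8 of 9 points lie left of 0 in the 3 comparisons that involve NestinTK+ GCV mice, with every interval crossing 0, and in the striatum the intervals are narrower.

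The other genes of the pathway in the striatum did include changes past the thresholds, and most of them turned on the 3 NestinTK- GCV libraries. Genes across the whole tissue did so too. The adjusted threshold was passed by 2.06% of all genes under GCV alone, 3.13% for the transgene under GCV and 0.817% for the interaction. The shares of all genes called were 2.46%, 2.1% and 3.28%. Whether the pathway genes exceeded these shares was not tested. Sesn1, the sestrin related to Sesn2 and also a p53 target, had 9.52, 11 and 19.4 CPM in NestinTK- GCV mice. The level was 36.7, 48.6, 42.2, 42.6 and 22.3 CPM in NestinTK+ GCV mice, 28.3, 23.3, 37.4 and 22.7 CPM in NestinTK+ PBS mice, and 44.6, 18.1 and 33.4 CPM in NestinTK- PBS mice. Only the mouse at 19.4 CPM reached the range of another group. Sesn1 fell under GCV alone (log2 fold change -1.26, SE 0.32; edgeR, adjusted p = 0.041), was higher with the transgene under GCV (1.52, SE 0.30; adjusted p = 0.0084) and differed between the genotypes in its response to GCV (1.71, SE 0.41; adjusted p = 0.049). In transgenic mice the fitted change with GCV was 0.45 (SE 0.25; adjusted p = 0.59). With 1 library left out at a time, the adjusted p for GCV alone stayed below 0.05 in 7 of 15 fits and reached 0.27 without mouse 1 of the NestinTK- PBS group, where the call was lost. For the transgene under GCV it stayed below 0.05 in 13 of 15, all but those without mouse 1 or mouse 2 of the NestinTK- GCV group, and for the interaction in 5 of 15. With limma-voom the adjusted p was 0.085 both for GCV alone and for the interaction, and with the series of mouse numbers as a covariate the interaction was 1.66 (edgeR, adjusted p = 0.10). With the series of mouse numbers as a covariate the adjusted p for GCV alone was 0.21 for Sesn1, 0.17 for Atm and 0.18 for Mcl1 (edgeR), with log2 fold changes of -1.17, 0.75 and -0.74.

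Atm, the kinase that signals DNA breaks to p53, rose in the same 3 libraries, at 37.5, 40.8 and 36.1 CPM, above all 12 others, which lay between 19.6 and 27.7 CPM. GCV alone gave a log2 fold change of 0.82 (SE 0.20; edgeR, adjusted p = 0.032) and the transgene under GCV -0.74 (SE 0.18; adjusted p = 0.022). Those values stayed past the adjusted threshold in 11 and 10 of 15 fits that left out 1 library. In transgenic mice GCV gave -0.07 (SE 0.17), and the difference between the genotypes was -0.89 (SE 0.26; adjusted p = 0.090).

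Mcl1, which protects cells from mitochondrial death, had 42.7, 27.8 and 49.4 CPM in NestinTK- GCV mice against 81.5, 61.7 and 58.1 CPM in NestinTK- PBS mice and fell under GCV alone (-0.75, SE 0.19; edgeR, adjusted p = 0.045), a threshold it kept in 5 of 15 fits with 1 library left out. Bad was lower with the transgene under GCV, at 55.3 to 65.5 CPM in NestinTK+ GCV mice against 85.9, 103 and 85.7 CPM in NestinTK- GCV mice (-0.58, SE 0.16; edgeR, adjusted p = 0.043), which held in 7 of 15 such fits. Called without passing the adjusted threshold were Apaf1, the core of the apoptosome, Abhd4 and Lig4. Apaf1 had 6.32 to 11.1 CPM in NestinTK+ GCV mice against 4.08, 2.25 and 2.83 CPM in NestinTK- GCV mice (1.39, SE 0.40; edgeR, adjusted p = 0.054). Abhd4, a p53 target, was lower under GCV alone, at 10.1, 8.51 and 11.8 CPM against 18.1, 16.8 and 28.8 CPM (-1.06, SE 0.36; edgeR, adjusted p = 0.12). Lig4, the ligase that joins broken DNA ends, differed in its response to GCV between the genotypes (1.13, SE 0.34; edgeR, adjusted p = 0.097). Apaf1 was no longer called without mouse 2 of the NestinTK- GCV group (1.21) and Lig4 without mouse 3 of the NestinTK- PBS group (0.97). Abhd4 was no longer called without mouse 1 (-1.06) or mouse 2 (-0.95) of the NestinTK- GCV group or mouse 3 of the NestinTK- PBS group (-0.78).

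**Figure D4:**
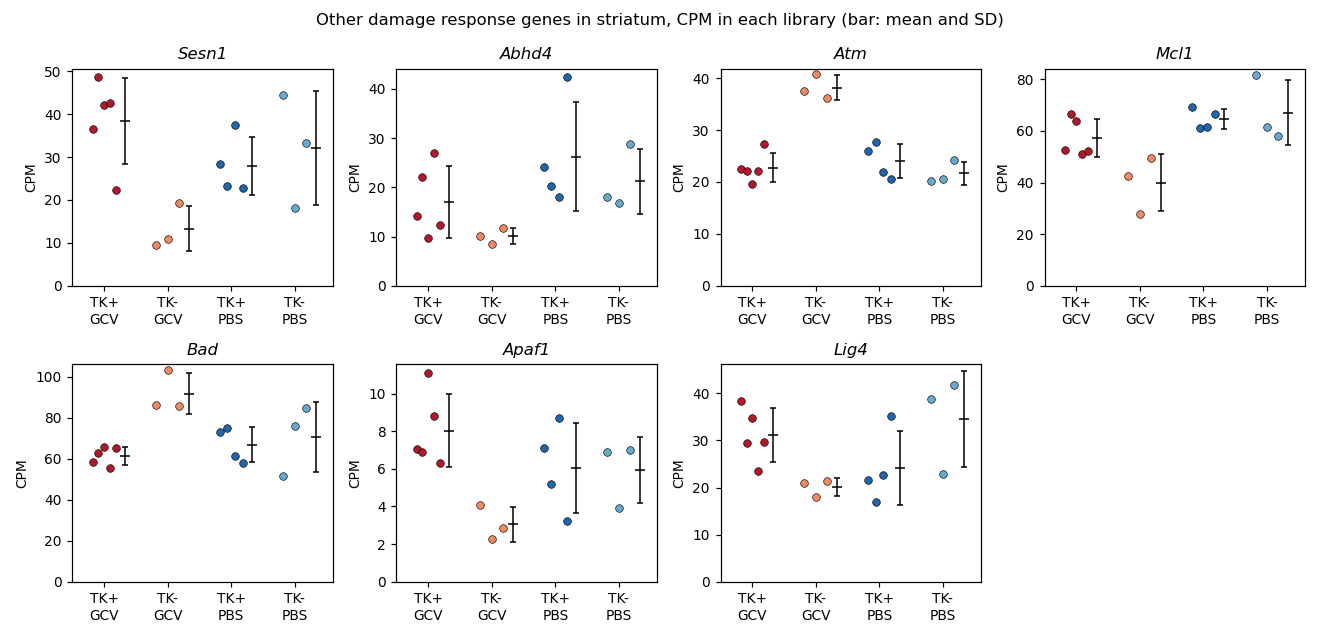
TMM-scaled CPM (vertical axes, linear from 0) in every striatal library for the 7 genes of the other pathway lists that passed a threshold in the striatum; points are libraries, with the mean and SD beside them. The 3 NestinTK- GCV libraries lie apart from the rest for Atm, at 36.1 to 40.8 CPM, and low for Sesn1 and Apaf1.

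By list, under GCV alone in the striatum 1 of 25 other p53 targets (Sesn1) passed the adjusted threshold, against 2.06% of all genes. So did 1 of 19 DNA damage signalling genes (Atm) and 1 of 11 Bcl2 family genes (Mcl1). Of 10 genes of p53 and its regulators, 21 caspases and death receptor genes and 11 of the Atf4 pathway, 0 passed. For the transgene under GCV 1 gene in each of the same lists passed (Sesn1, Atm and Bad) and 0 in the rest, against 3.13% of all genes. Under GCV in transgenic mice 0 genes of any of the 6 pathway lists did, against 0.149% of all genes. The list medians for GCV in transgenic mice were 0.18 for the other p53 targets, 0.14 for DNA damage signalling, 0.06 for 21 caspases and death receptor genes, -0.20 for the Bcl2 family, -0.16 for the Atf4 pathway and -0.00 for p53 and its regulators, while the median of all genes was 0.01.

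In single SVZ libraries the 9 genes did not all move together. Mouse 3 of the NestinTK+ GCV group had the lowest Cdkn1a of all 15 libraries, at 0.613 CPM, but its Mdm2, at 30.9 CPM, lay inside the range of the other groups. Mouse 5 of that group had the lowest Phlda3, at 0.496 CPM, but its Cdkn1a, at 19.3 CPM, lay inside the range of the other groups. Correlations between genes over the libraries are not given.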

How the data were processed

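The authors dissected SVZ and striatum, made SVZ libraries with SMART-Seq v4 (whole transcript) and striatal libraries with QuantSeq 3′ FWD, trimmed the single-end reads with Trimmomatic (0.36 per the labels), aligned them to mm10 with STAR 2.5.3a and counted them per gene with featureCounts, so the deposited values are raw counts. The strand setting and the treatment of duplicate reads are not given in the sources used here. The tissues differ in chemistry and were tested apart.

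Genes above 1 CPM in at least 3 libraries were tested with edgeR 4.0.16 (quasi-likelihood, TMM scaling, R 4.3.3) in a fit of the 4 groups. NestinTK+ GCV against the 3 pooled groups used 2 groups, as the study did. Adjustment was by Benjamini-Hochberg over all genes tested. A call needed an unadjusted p of at most 0.01 and a 2-fold change. Standard errors and intervals come from the same fit. Alternatives were limma-voom (limma 3.58.1), DESeq2 1.42.0, RLE size factors, no filter, each mouse left out, the series of mouse numbers as a covariate, only the 2 groups compared, and no libraries with Ttr over 1%. The fitting code was tested on simulated data. The samples of a group are separate mice, so p-values measure the spread between mice, which holds sex (not given per mouse) and mouse number series as well. Intervals at counts of 0 cover counting error only.

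The 9 genes and the other lists were chosen with earlier results of these data known. Genes of the other lists were named where called, or where the adjusted p was below 0.05, in any comparison but the transgene alone. Promoter windows were read from RefSeq tables of GRCm38.p6 and gene positions from GENCODE on GRCm38.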

Additional observations from a re-analysis of the deposited data

Results flagged for a closer look

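Gadd45a in the SVZ of mouse 1 of the NestinTK+ GCV group, at 9.12 CPM, lay apart from the other 4 mice of its group, which were at 0 to 2.35 CPM. Bok in the SVZ of mouse 4 of the NestinTK+ PBS group, at 136 CPM, lay apart from the other 3 at 15 to 23.7 CPM. Cflar in the SVZ of mouse 1 of the NestinTK+ PBS group, at 21.2 CPM, lay apart from the other 3 at 4.54 to 6.5 CPM. That library is among those with Ttr over 1% of counts. Among the 9 genes 1 of 36 groups tested held such a library, and among the other named genes 2 of 22 did, where about 1 in 20 is expected by chance.

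In the striatum the effect of GCV differed between the genotypes for Sesn1 (interaction 1.71 on the log2 scale; edgeR, adjusted p = 0.049), for which GCV alone gave -1.26 and GCV in transgenic mice 0.45. That interaction did not pass the adjusted threshold with limma-voom (0.085), with the series of mouse numbers as a covariate (edgeR, adjusted p = 0.10), or in 10 of 15 fits with 1 mouse left out. For Lig4 the interaction was 1.13 (edgeR, unadjusted p = 0.0026, adjusted p = 0.097), with -0.77 for GCV alone and 0.36 in transgenic mice. For Bax it was -1.18 (edgeR, unadjusted p = 0.043, adjusted p = 0.31), with 0.90 for GCV alone and -0.28 in transgenic mice. The last 2 did not pass the adjusted threshold. All 3 values rest on the same 3 NestinTK- GCV libraries, in which the summed level of ependymal genes was lower and that of microglial genes mostly higher than elsewhere, and the part of those cell types was not tested.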

How the results depend on the processing

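The number of members called was 0 in 11 of 12 comparisons under every alternative run. For GCV alone in the striatum it was 1 with the series of mouse numbers as a covariate (Phlda3), and 0 to 1 with each mouse left out, the value of 1 being Bbc3 without mouse 1 of the NestinTK- GCV group or mouse 2 of the NestinTK- PBS group. The cause was not tested. All 1170 alternative values of members in the SVZ kept their side of the threshold, with an adjusted p of at least 0.35, and 56 of them changed sign. In the striatum 1113 of 1116 kept their side and 40 changed sign. Of 520 values of the other named genes in the SVZ, 38 lost a call and 19 gained one, and in the striatum 7 and 2 of 868. No called value changed sign. The number of members lower in the SVZ was 4 to 7 for GCV alone, 3 to 7 for the transgene alone and 6 to 8 for the interaction.

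With 1 mouse left out, the adjusted p of Sesn1 for GCV alone rose above 0.05 without mice 1, 3 or 4 of the NestinTK+ GCV group, 1 or 2 of NestinTK- GCV, 1 of NestinTK+ PBS, or 1 or 3 of NestinTK- PBS. That of Atm did so without mice 1 or 2 of NestinTK- GCV, or 1 or 3 of NestinTK- PBS, and for the transgene under GCV without mice 1, 2 or 3 of NestinTK+ GCV, or 1 or 2 of NestinTK- GCV. The highest adjusted p was 0.31 for Mcl1 and 0.26 for Bad (edgeR). With only the 2 groups compared it was 0.057 for Sesn1 under GCV alone, and the highest over the alternatives that kept every mouse was 0.18 for Mcl1 and 0.055 for Bad.

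No paired analysis was possible because each mouse belonged to 1 group and the replicate numbers only name the mice. Depth limits the low genes: 1 count was worth 0.218 to 0.37 CPM in the striatum and 0.0482 to 0.14 CPM in the SVZ, where the common biological coefficient of variation was 0.913 against 0.225 in the striatum.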

Other observations

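SVZ and striatum came from the same 15 mice, so each gene could be set side by side within a mouse. For Cdkn1a mouse 3 of the NestinTK+ GCV group was the lowest in both tissues, at 0.613 CPM in the SVZ and 8.88 CPM in the striatum. Mouse 2 of that group was the next lowest in the SVZ, at 5.44 CPM. In the striatum mouse 2 was at 21 CPM, inside the range of the other groups. How closely the tissues followed each other over the 15 mice is not given for any gene.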
